A study of Mus musculus with 12 samples.

Results

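The immediate early genes are switched on within minutes of a stimulus from factors that already sit in the cell, without new protein synthesis. The 10 followed here are Fos, Fosb, Jun, Junb, Atf3, Egr1, Egr3, Ier2, Ier3 and Myc. They were found in the table by gene name, from a list drawn up with earlier results of these data known. All 10 were among the 43686 rows of the count table, and all 10 passed the filter on low counts that left 17155 rows to test. RNA came from the ventricular wall, with 6 libraries of WT mice, which are littermates that have both Sdhaf4 alleles floxed (Sdhaf4fl/fl) but lack Cre, and 6 libraries of KO mice, which carry the same floxed alleles and Ckmm-Cre. Ckmm-Cre is driven by the muscle creatine kinase promoter, so the floxed alleles are cut in cardiac and skeletal muscle. SDHAF4 is an assembly factor of mitochondrial complex II. The labels give strain C57BL/6, an age of postnatal month 2 and the genotypes wild type and Sdhaf4-/-, without naming the Cre. For the hearts used in RNA-seq, the study's text gives a younger age than the labels do. Which age is right cannot be told here. Nothing in the labels pairs a WT library with a KO library.

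Most products of these genes are transcription factors. FOS and JUN proteins bind DNA as pairs called AP-1, ATF3 belongs to the same basic leucine zipper class and often represses, EGR proteins are zinc finger factors, and MYC drives growth genes. IER2 is a nuclear protein and IER3 acts in cell survival. In the heart the family is known for its rise under stretch, adrenergic drive, ischemia and reperfusion, and also for its rise while tissue is being dissected. In this class of gene, serum response factor (SRF) with its ternary complex partners and CREB, both downstream of MAP kinases, act on the promoter before transcription starts.

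Read totals on the rows were 23747014 to 27159228 for WT libraries, with a median of 25476732, and 26542930 to 31393393 for KO libraries, with a median of 29399085. Levels are CPM, counts scaled to a common library total with edgeR's TMM factors. They are compared between genes only as the deposited FPKM, which is also divided by a length for each gene. For some genes, Fos and Egr1 among them, that length was not the one listed with the counts. Comparisons between genes therefore hold only on the scale of the deposited FPKM. Sdhaf4 itself was at 14.3 to 30.3 CPM in WT and 2.25 to 2.73 CPM in KO, a log2 fold change of -3.39 ± 0.16 (SE). The lowest WT value of Sdhaf4 was that of WT replicate 6, and KO replicate 3 stood nearer to the WT libraries than the other KO libraries on the first principal component. Results without both libraries are given with the members. The same-genotype libraries differed by more than counting noise, and the labels do not say that each came from its own animal, so the p-values measure only the spread between these samples, which may be technical. Genotype called 8767 of the 17155 rows at an adjusted p under 0.05 (51.1%), so a call alone does not set a gene apart.

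The sequence just before the transcription start is shown for the 4 members that were lower in KO and for Ier3, which was higher. The same inputs are known to act on the promoters, of which only the part nearest the start is shown. RefSeq promoters of GRCm38.p6 were at hand for 6 of the 10 members, and the 250 bases that end at the start site are given 5′ to 3′ along the gene, with capitals on each match to a motif searched. Fos lies at chr12:85473640-85473889 on the plus strand, Fosb at chr7:19310046-19310295 on the minus strand, Jun at chr4:95052223-95052472 on the minus strand, Atf3 at chr1:191183334-191183583 on the minus strand and Ier3 at chr17:35821463-35821712 on the plus strand.
Fos: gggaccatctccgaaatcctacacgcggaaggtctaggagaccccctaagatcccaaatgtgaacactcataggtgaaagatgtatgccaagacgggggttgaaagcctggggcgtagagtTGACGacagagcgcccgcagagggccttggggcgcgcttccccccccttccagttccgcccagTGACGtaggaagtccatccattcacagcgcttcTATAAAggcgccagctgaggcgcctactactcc
Fosb: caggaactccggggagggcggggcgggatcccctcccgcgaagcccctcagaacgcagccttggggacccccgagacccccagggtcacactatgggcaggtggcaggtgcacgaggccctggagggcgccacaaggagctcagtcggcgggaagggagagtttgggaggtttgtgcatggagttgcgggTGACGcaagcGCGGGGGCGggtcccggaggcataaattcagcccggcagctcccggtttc
Jun: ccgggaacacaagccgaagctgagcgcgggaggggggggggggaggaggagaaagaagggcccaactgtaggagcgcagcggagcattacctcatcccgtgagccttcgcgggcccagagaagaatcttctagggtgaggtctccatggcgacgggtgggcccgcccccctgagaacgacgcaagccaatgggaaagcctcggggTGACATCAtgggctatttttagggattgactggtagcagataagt
Atf3: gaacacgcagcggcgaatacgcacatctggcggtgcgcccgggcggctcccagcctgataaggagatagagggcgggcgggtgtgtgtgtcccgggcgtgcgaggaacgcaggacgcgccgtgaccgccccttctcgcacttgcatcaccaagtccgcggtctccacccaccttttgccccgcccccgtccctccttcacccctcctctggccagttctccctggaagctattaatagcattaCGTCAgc
Ier3: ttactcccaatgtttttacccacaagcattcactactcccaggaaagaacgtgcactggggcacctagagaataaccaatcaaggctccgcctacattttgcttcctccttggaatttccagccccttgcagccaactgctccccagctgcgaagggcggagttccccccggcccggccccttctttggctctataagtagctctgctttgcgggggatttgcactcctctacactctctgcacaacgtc

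In the Fos window, TGACG, the core of the cyclic AMP response element, was found at -129 to -125 and at -66 to -62, and the TATA motif TATAAA at -33 to -28, with positions counted back from the start. The Fosb window held TGACG at -60 to -56 and the EGR site GCGNGGGCG at -50 to -42. In Jun the only match was the ATF and AP-1 octamer TGACNTCA at -45 to -38, and in Atf3 it was TGACG at -7 to -3, on the opposite strand. The Junb window, not printed, had TGACG at -106 to -102. The Ier3 window matched none of the 8 motifs. The others searched were the full element TGACGTCA, which is also a match of the octamer and holds TGACG, the AP-1 site TGANTCA, the E-box CACGTG and the CArG box bound by SRF, and none of the 6 windows had one. Sequence further upstream was not searched, so these absences hold for the windows alone. Whether Fos or another member has a CArG box beyond its window was not tested. Egr1, Egr3, Ier2 and Myc had no window to search. Both strands were searched, apart from TATAAA, which was searched along the gene. Among all 32851 promoters of that length, TGACG was in 17.8%, TGACNTCA in 7.49%, GCGNGGGCG in 4.70%, TATAAA in 7.59%, TGANTCA in 6.75%, CACGTG in 6.02%, the full element in 1.55% and the CArG box in 1.47%. The GC content of the printed windows was 58.4% for Fos, 68.8% for Fosb, 61.2% for Jun, 65.2% for Atf3 and 54.4% for Ier3, and the median of all promoters was 52.4%. A match is only a match of letters.

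The 10 genes did not move as one. In the quasi-likelihood test of edgeR, with p-values adjusted over all rows by Benjamini and Hochberg's method, 4 were lower in KO (Fos, Fosb, Jun and Atf3), 2 were higher (Egr3 and Ier3) and 4 were not called (Junb, Egr1, Ier2 and Myc). That is 6 of 10 called beside 51.1% of all rows, 2 higher beside 25.6% and 4 lower beside 25.5%. The median log2 fold change of the 10 was -0.16, and that of all rows tested was 0.0022. At the study's stricter threshold, an adjusted p under 0.005 with a log2 fold change over 1 in either direction, 3 of 10 were called (Fos, Egr3 and Atf3) beside 10.2% of all rows. Fos and Egr3 were the members whose WT and KO values did not overlap, 2 of 10 beside 30.1%. With 10 genes and no test of these shares, nothing about the group is read from them. Egr3 passed the low-count filter only through KO, where it is high, so its call is no support for the group. Among the other 9 genes, 5 were called (1 higher and 4 lower), 2 passed the stricter threshold, 1 did not overlap, and the median log2 fold change was -0.24. The stricter call of Fos held in 2 of the 12 fits that each leave out 1 library: it was lost without WT replicate 1, 2, 3 or 4 and without any of the 6 KO libraries (edgeR adjusted p from 0.00567 to 0.0126). That of Atf3 held in 10 of 12 and was lost without KO replicate 2 (adjusted p = 0.0051) or KO replicate 3 (0.0055).

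**Figure D1:**
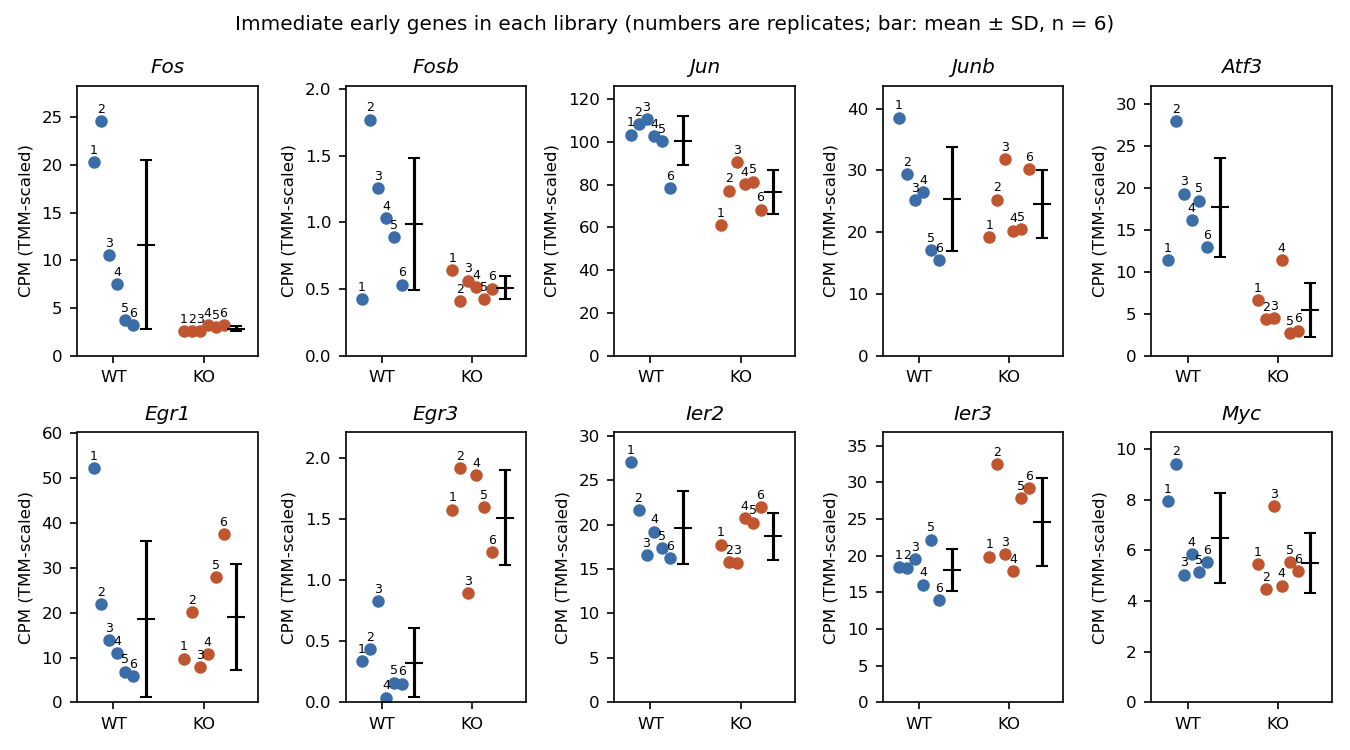
Each panel plots 1 gene, with TMM-scaled CPM on a linear axis from 0 for the 6 WT (blue) and 6 KO (orange) libraries. Digits are replicate numbers and the black bar is the mean ± SD. Fos was spread from 3.25 to 24.6 CPM in WT and sat between 2.58 and 3.21 CPM in KO, while Egr1 was spread widely in both genotypes.

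Fos, the inducible FOS protein of AP-1 (MGP_C57BL6NJ_G0020349, chromosome 12, 88741461 to 88744847, plus strand, on the C57BL/6NJ coordinates of the file), had 20.3, 24.6, 10.5, 7.51, 3.72 and 3.25 CPM in WT replicates 1 to 6. In KO replicates 1 to 6 it had 2.60, 2.62, 2.58, 3.20, 2.998 and 3.21 CPM. WT replicates 1 and 2 were far above the rest, WT replicates 5 and 6 lay just above the highest KO library, and the groups did not overlap. The fold change was 4.06-fold lower in KO (log2 -2.02 ± 0.49 SE, 95% interval -3.10 to -0.94, edgeR adjusted p = 0.00471), and every KO library was below every WT library. The exact two-sided permutation test on log2 CPM gave p = 0.00216, the smallest that 6 against 6 allows. The size of the mean difference rested on how high the WT libraries stood, since the mean was 11.7 ± 8.88 CPM (SD, n = 6) in WT and 2.87 ± 0.301 CPM (SD, n = 6) in KO. Counts on the gene ran from 85 to 681 in WT and from 70 to 93 in KO, so counting noise in each value is small beside the WT spread.

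Fosb, a relative of Fos with the same partners (chromosome 7, 18160456 to 18167782, minus strand), was scarce. It had 0.423, 1.77, 1.26, 1.03, 0.890 and 0.535 CPM in WT replicates 1 to 6, from 10 to 49 counts. KO libraries had 0.642, 0.412, 0.563, 0.516, 0.424 and 0.505 CPM, from 11 to 20 counts. WT replicates 2, 3, 4 and 5 were above every KO library, and WT replicates 1 and 6 lay within the KO range. It was 1.93-fold lower in KO (log2 -0.95 ± 0.33 SE, interval -1.65 to -0.24, edgeR adjusted p = 0.0251). The call was lost without WT replicate 2 (adjusted p = 0.0898), WT replicate 3 (0.0551), KO replicate 2 (0.05, at the threshold) or KO replicate 5 (0.0510), and with limma-voom (0.0631).

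The remaining FOS genes did not share this direction. Fosl2, a FOS relative that lacks the activation domain of Fos, had 60.9 ± 9.71 CPM in WT and 64.7 ± 4.90 CPM in KO (SD, n = 6), a log2 difference of 0.09 with an interval of -0.11 to 0.29 (edgeR adjusted p = 0.458). Fosl1 was near the floor, with 3 to 28 counts a library, and a log2 difference of 0.39 (interval -0.65 to 1.43, edgeR adjusted p = 0.537). Summed as FPKM, the 4 FOS genes were at 17.6 to 40.5 in WT and 17.3 to 21.4 in KO. The share of that sum carried by Fos was 17.3% to 60.8% in WT and 11.6% to 15.4% in KO, with medians of 30.9% and 13.6%. Fosl2 carried 38.0% to 80.2% in WT and 83.1% to 85.6% in KO, so the KO libraries had a nearly fixed composition and the WT libraries did not.

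Jun, which pairs with FOS proteins and with itself (chromosome 4, 98755429 to 98758617, minus strand), was lower in KO by a small amount. It had 103, 108, 110, 103, 100.3 and 78.3 CPM in WT replicates 1 to 6 and 61.2, 77.1, 90.3, 80.2, 81.4 and 68.3 CPM in KO replicates 1 to 6. WT replicate 6 lay inside the KO range, and the other 5 WT libraries were above every KO library. The difference was 1.32-fold (log2 -0.40 ± 0.09 SE, interval -0.60 to -0.19, edgeR adjusted p = 0.00244, exact permutation p = 0.00866). An unnamed row on the opposite strand shares 689 bases with Jun and took 35 to 91 counts a library, against 1895 or more on Jun.

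Junb, which often opposes Jun at AP-1 sites (chromosome 8, 89205616 to 89207455, minus strand), had 38.5, 29.4, 25.1, 26.5, 17.1 and 15.5 CPM in WT and 19.2, 25.3, 31.8, 20.2, 20.5 and 30.2 CPM in KO. The KO range lay inside the WT range. The log2 difference was -0.05 with an interval of -0.53 to 0.43 (edgeR adjusted p = 0.875), and that interval includes a fall of the size seen for Jun. Jund, the JUN gene that is expressed without a stimulus, was lower in KO without overlap, from 117 ± 8.32 to 97.6 ± 4.32 CPM (SD, n = 6), a log2 change of -0.27 ± 0.05 SE (edgeR adjusted p = 0.00044). A row on the opposite strand that took 77 to 182 counts overlaps Jund. The 3 JUN genes together were at 77.2 to 95.5 FPKM in WT and 61.9 to 76.5 FPKM in KO.

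Atf3, which is induced by stress and can dampen AP-1 and inflammatory genes (chromosome 1, 204512664 to 204563744, minus strand), had 11.4, 27.9, 19.3, 16.2, 18.5 and 12.9 CPM in WT replicates 1 to 6. KO replicates 1 to 6 had 6.62, 4.35, 4.50, 11.4, 2.74 and 2.99 CPM. The groups met at a single point: KO replicate 4 was just above WT replicate 1, and the other 5 KO libraries were below every WT library. Atf3 was 3.26-fold lower in KO (log2 -1.70 ± 0.35 SE, interval -2.48 to -0.93, edgeR adjusted p = 0.00168, exact permutation p = 0.00433). Unlike Fos, whose WT values were the spread ones, Atf3 varied 2.46-fold from lowest to highest in WT and 4.17-fold in KO. The WT libraries with the most Fos were not those with the most Atf3 throughout, since WT replicate 1 had the second highest Fos and the lowest Atf3.

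**Figure D2:**
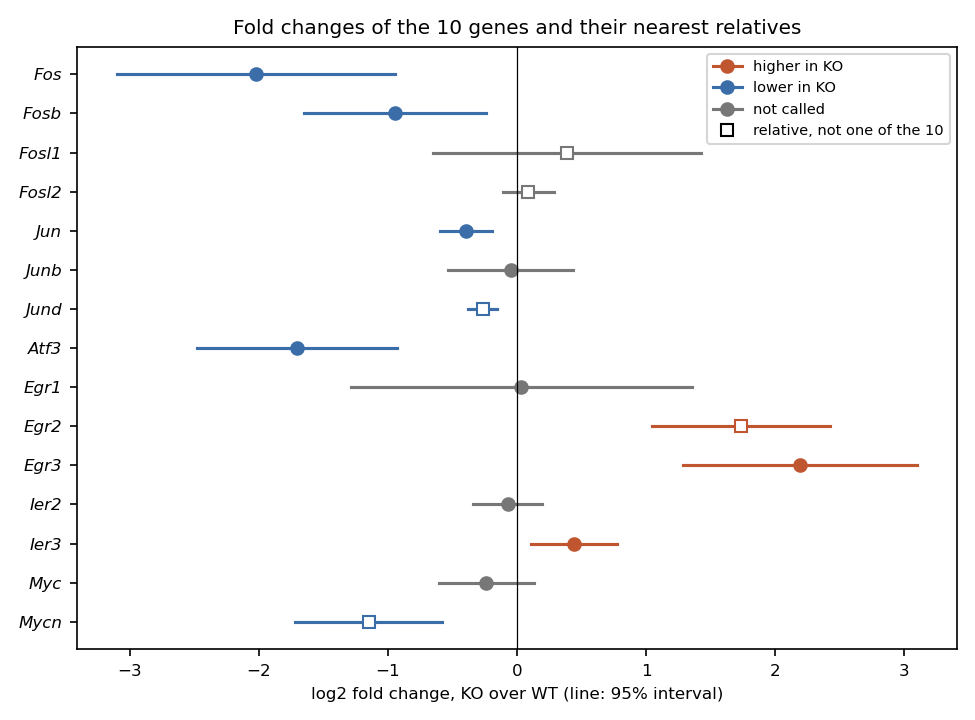
Log2 fold change of KO over WT (x axis) for the 10 genes (filled circles) and 5 relatives of the same families (open squares), with 95% intervals as lines. Orange is higher in KO, blue is lower and grey is not called. Fos and Atf3 lie to the left at -2.02 and -1.70, Egr2 and Egr3 to the right at 1.73 and 2.19, and the widest interval that crosses 0 is that of Egr1.

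The EGR genes divided in another way. Egr1, the most abundant of them (chromosome 18), had 52.1, 21.9, 13.9, 10.9, 6.88 and 5.81 CPM in WT replicates 1 to 6 and 9.73, 20.1, 7.85, 10.8, 28.0 and 37.4 CPM in KO replicates 1 to 6. Both groups ran from low to high and overlapped over nearly their whole range. The means were 18.6 ± 17.4 and 18.98 ± 11.8 CPM (SD, n = 6), and the log2 difference of 0.03 had an interval of -1.29 to 1.35 (edgeR adjusted p = 0.970). Without WT replicate 1 it was 0.66 (edgeR adjusted p = 0.304). The interval holds falls and rises larger than the change of Fosb, so at this spread a difference of that size was not detectable.

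Egr3, a close relative of Egr1 (chromosome 14, 67613921 to 67616633, plus strand), was higher in every KO library. It had 0.338, 0.434, 0.826, 0.0398, 0.162 and 0.153 CPM in WT, from 1 to 21 counts, and 1.57, 1.91, 0.894, 1.86, 1.597 and 1.23 CPM in KO, from 27 to 54 counts. KO replicate 3 and WT replicate 3 were close together, and the groups did not overlap. The fitted difference was 4.57-fold (log2 2.19 ± 0.43 SE, interval 1.29 to 3.10, edgeR adjusted p = 0.000392). In WT, 2 libraries were over the filter's cutoff of 0.372 CPM, against 6 in KO, so Egr3 was tested only because it was high in KO, and its WT level rests on few reads. In the fit without a filter, over 27883 rows, where no such choice is made, the log2 fold change was 2.19 (edgeR adjusted p = 0.00011).

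Egr2, which is not one of the 10, went the same way, from 0.737 ± 0.311 to 2.46 ± 0.656 CPM (SD, n = 6; log2 1.73 ± 0.33 SE, edgeR adjusted p = 0.000274), without overlap. The share of the summed EGR FPKM carried by Egr1 was 74.3% to 94.7% in WT and 47.4% to 79.3% in KO. That of Egr3 was 0.808% to 11.96% in WT and 6.92% to 23.2% in KO. Egr1 thus remained the largest single share on the FPKM scale in the median library of each genotype, at 85.3% and 61.7%.

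Ier2, which encodes a small nuclear protein (chromosome 8, 88855110 to 88856631, minus strand), had 27.0, 21.6, 16.5, 19.2, 17.4 and 16.2 CPM in WT and 17.7, 15.8, 15.7, 20.7, 20.2 and 21.99 CPM in KO. The groups overlapped, with WT replicate 1 above all others. The log2 difference was -0.07 (interval -0.34 to 0.20, edgeR adjusted p = 0.662).

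Ier3, a survival gene also induced by NF-kappaB (chromosome 17, 37487770 to 37489009, plus strand), had 18.4, 18.4, 19.5, 16.02, 22.2 and 13.9 CPM in WT and 19.9, 32.5, 20.2, 17.9, 27.8 and 29.2 CPM in KO. KO replicates 2, 5 and 6 were above every WT library, and KO replicates 1, 3 and 4 lay in the WT range. Ier3 was 1.36-fold higher in KO (log2 0.44 ± 0.15 SE, interval 0.11 to 0.77, edgeR adjusted p = 0.0264). The call was lost without WT replicate 4 (adjusted p = 0.0603), WT replicate 6 (0.0571), KO replicate 2 (0.0572), KO replicate 5 (0.0564) or KO replicate 6 (0.0604).

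Myc (chromosome 15, 63628035 to 63634726, plus strand) had 7.95, 9.43, 5.04, 5.84, 5.14 and 5.54 CPM in WT and 5.46, 4.46, 7.75, 4.61, 5.54 and 5.19 CPM in KO. WT replicates 1 and 2 and KO replicate 3 were high, and the rest lay together. The log2 difference was -0.24 (interval -0.61 to 0.13, edgeR adjusted p = 0.273). Its relative Mycn was lower in KO without overlap, from 2.34 ± 0.706 to 1.05 ± 0.346 CPM (SD, n = 6; log2 -1.15 ± 0.27 SE, edgeR adjusted p = 0.00182).

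Without KO replicate 3 and WT replicate 6, a setting added after the data were seen, the same 6 members were called in the same directions, with Fos at log2 -2.19, Atf3 at -1.74, Jun at -0.52, Fosb at -1.11, Egr3 at 2.15 and Ier3 at 0.42. Myc was then at -0.41 (edgeR adjusted p = 0.0569).

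Within a genotype, the size of the spread differed greatly among the genes. The SD of log2 CPM over the 6 WT libraries was 1.20 for Fos and 1.16 for Egr1, each above 99.7% of the 14789 rows of at least 1 CPM, whose median was 0.14. In KO it was 0.91 for Egr1, above 99.0% of rows, and 0.15 for Fos, above 42.6%, with a median of 0.17 for all rows. Egr1 therefore varied in both genotypes, and Fos in WT alone by this measure. From lowest to highest library Fos spanned 7.58-fold in WT and 1.24-fold in KO, and Egr1 8.97-fold and 4.77-fold. Jun spanned 1.41-fold and 1.48-fold. The difference in spread between genotypes was not tested.

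High values of several members fell in the same WT libraries. Counting the members above their own genotype's median, there were 8 of 10 in WT replicate 1, 9 in replicate 2, 7 in replicate 3, 4 in replicate 4, 2 in replicate 5 and 0 in replicate 6. In KO the counts ran only from 3 to 7. WT replicates 1 and 2 had the highest Fos, Junb, Egr1, Ier2 and Myc of the WT libraries. In KO the highest Egr1 was that of replicate 6, while the highest Atf3 was in replicate 4 and the highest Jun, Junb and Myc in replicate 3.

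Over all 12 libraries, with each gene centred within its genotype, the Pearson correlation with the mean of the other 9 members was 0.93 for Fos, 0.63 for Junb, 0.55 for Ier2, 0.53 for Egr1, 0.46 for Egr3 and for Jun, 0.41 for Myc, 0.21 for Ier3, 0.20 for Fosb and 0.00 for Atf3. The spread of Fos lay almost all in WT, with an SD of log2 CPM of 1.20 against 0.15 in KO. Its correlation therefore rests mainly on the WT libraries and says little about KO. These values share libraries and depth and are given as a description. Outside the gene lists, the annotated genes of at least 5 CPM whose centred levels were most like the mean of the 10 were Zfp330 (r = 0.93), Jak1 (0.86), Fam160b1 (0.86), Lrrc32 (0.84), Adss (0.84) and Dzip1l (0.84), the highest of 10097 genes over 12 libraries. Jak1, a kinase of cytokine receptors, was itself lower in KO (log2 -0.73, edgeR adjusted p = 9.51e-08).

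**Figure D3:**
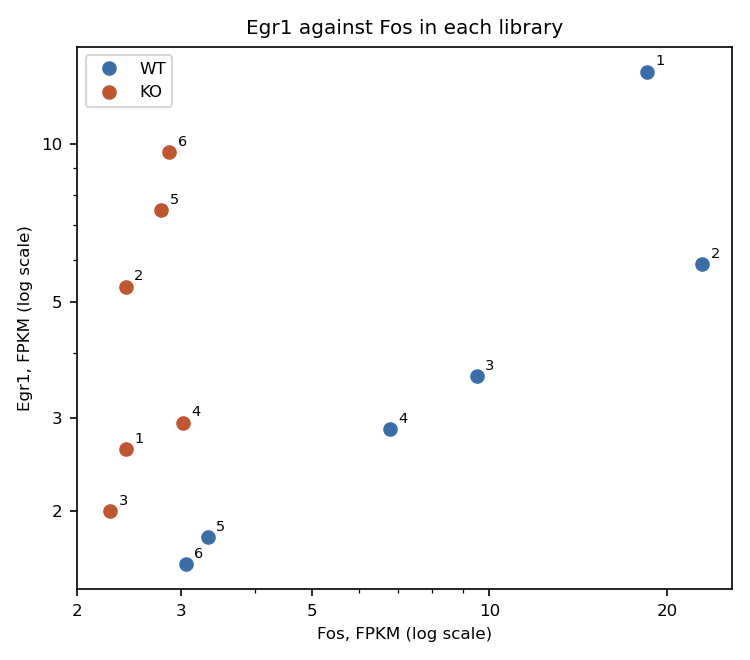
Egr1 (y axis) against Fos (x axis) in each of the 12 libraries, both as FPKM on log axes, with WT in blue, KO in orange and replicate numbers beside the points. The WT points run from 3.06 to 23.0 FPKM of Fos, and the KO points stand at 2.28 to 3.02 FPKM of Fos while Egr1 runs from 2.00 to 9.66 FPKM.

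Set against Fos per library, Egr1 was at 0.742, 0.257, 0.380, 0.421, 0.534 and 0.517 of the Fos FPKM in WT replicates 1 to 6. In KO it was at 1.08, 2.21, 0.878, 0.976, 2.70 and 3.38 times the Fos FPKM. The highest WT ratio was below the lowest KO ratio. The size of each ratio rests on the lengths behind the FPKM, but the order of the libraries does not. Junb over Fos was 0.709 to 2.83 in WT and 3.76 to 7.31 in KO, again without overlap, whereas Jun over Fos overlapped, at 1.51 to 9.22 in WT and 7.29 to 11.98 in KO. Fos, the denominator of each ratio, was itself lower in every KO library, and Egr1 and Junb were not called. The separation of the ratios is thus no result for Egr1 or Junb apart from that of Fos. The pairs were picked after their values were seen and no test was made of the ratios. In bulk tissue, fewer cells of a type and less RNA per cell cannot be told apart, and this holds for every level given here.

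On the FPKM scale the order of the genes in WT was Jun at 31.4 ± 3.37, Ier3 at 15.9 ± 2.31, Junb at 13.8 ± 4.58, Ier2 at 12.9 ± 2.73, Atf3 at 12.04 ± 4.10, Fos at 10.7 ± 8.26, Egr1 at 4.91 ± 4.60, Myc at 3.71 ± 1.07, Fosb at 0.262 and Egr3 at 0.229 (SD, n = 6). From Ier3 to Fos neighbouring levels lay within each other's SD. In KO the order was Jun at 23.9 ± 3.09, Ier3 at 21.7 ± 5.26, Junb at 13.3 ± 2.61, Ier2 at 12.3 ± 1.83, Egr1 at 5.01 ± 3.07, Atf3 at 3.73 ± 2.31, Myc at 3.13 ± 0.607, Fos at 2.63 ± 0.297, Egr3 at 1.07 and Fosb at 0.136. In KO, Jun and Ier3 were within each other's SD, as were Junb and Ier2, the neighbours Egr1 and Atf3, and Atf3 and Myc. The places of Fos, Egr1, Atf3 and Myc in both orders rest on lengths other than those listed with the counts.

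Other genes of the primary response went both ways as well. Of 52 further rapidly induced genes on the list, 50 were in the table and 49 were tested. Of these, 17 were higher in KO (34.7%, beside 25.6% of all rows), 12 were lower (24.5%, beside 25.5%) and 20 were not called. The median log2 fold change was 0.23. The stricter threshold was passed by 8 of 49, beside 10.2% of all rows. Dusp2, one of the 17 and of the 8, passed the filter only through KO. The 4 rises with the smallest p and a mean of at least 1 CPM were Bhlhe40, Ctgf, Maff and Mafk. Bhlhe40, a basic helix-loop-helix repressor of clock genes, went from 17.6 ± 3.73 to 70.5 ± 11.5 CPM (SD, n = 6; log2 2.00 ± 0.14 SE, edgeR adjusted p = 9.28e-08). Ctgf, a matrix protein made under stretch and TGF-beta, went from 366 ± 48.7 to 1253 ± 312 CPM (log2 1.77, adjusted p = 3.76e-07), with an overlapping row on the opposite strand at 244 to 1637 counts. The small MAF factors Maff and Mafk, which lack an activation domain, rose by 0.96 and 0.71 on the log2 scale.

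The 4 falls with the smallest p were Nr4a2, Klf2, Zfp36 and Jund. Nr4a2, an orphan nuclear receptor, went from 2.68 ± 0.905 to 1.19 ± 0.116 CPM (SD, n = 6; log2 -1.17 ± 0.22 SE, edgeR adjusted p = 0.000285), without overlap. Klf2, a flow-responsive factor of endothelial cells, went from 113 ± 22.6 to 54.2 ± 13.7 CPM (log2 -1.06, adjusted p = 0.000379). KO replicate 4 of Klf2, at 80.0 CPM, lay above the lowest WT library, at 71.3 CPM. Zfp36, which speeds the decay of AU-rich mRNAs such as those of this class, fell by 0.54 on the log2 scale (edgeR adjusted p = 0.000408).

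**Figure D4:**
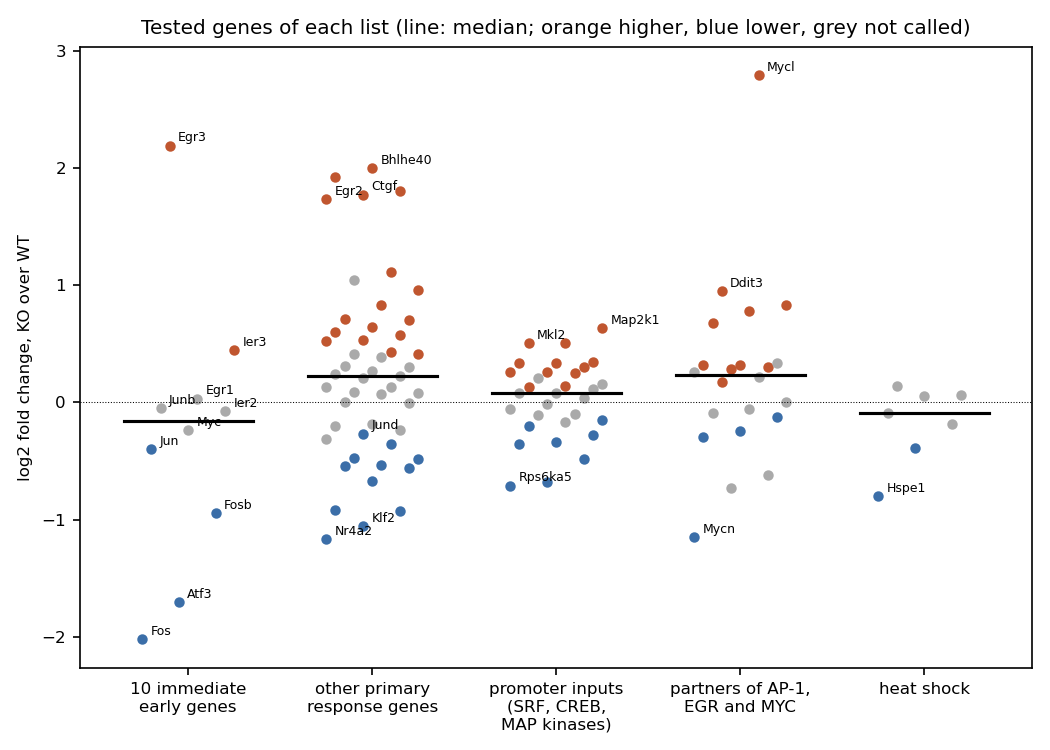
Log2 fold change of KO over WT (y axis) for each tested gene of the 10 and of 4 lists, as points, with the median of each list as a black line. Orange is higher in KO, blue is lower and grey is not called. Every list held genes on both sides of 0, with medians of -0.16, 0.23, 0.08, 0.24 and -0.09. Mycl, the highest point, passed the filter only through KO.

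The factors and kinases that act on these promoters changed by small amounts. All 31 on the list were tested, with 12 higher (38.7%, beside 25.6% of all rows), 8 lower (25.8%, beside 25.5%) and 11 not called, a median of 0.08, and the largest change in either direction was -0.71 on the log2 scale. Srf, which binds the CArG box, was higher, from 122 ± 9.18 to 146 ± 14.5 CPM (SD, n = 6; log2 0.26 ± 0.07 SE, edgeR adjusted p = 0.00404). Its cofactor Mkl2 rose by 0.50 and the CREB coactivator Crtc3 by 0.34. Of the MAP kinase cascade, Map2k1 rose by 0.64 and Map2k4 by 0.35, and Mapk3 differed by -0.01 (interval -0.12 to 0.09, edgeR adjusted p = 0.853). Map2k1 shares bases with Uchl4, a row of 122 to 209 counts. Lower were Rps6ka5, which phosphorylates histone H3 and CREB at such promoters (log2 -0.71), Rps6ka2 (-0.34) and the class IIa deacetylases Hdac5 (-0.68) and Hdac4 (-0.28). These are RNA levels, and they do not measure the activity of kinases that work by phosphorylation. By immunoblot, the study reported more phosphorylated ERK in left ventricles of KO mice.

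Of 23 partners, relatives and corepressors of AP-1, EGR and MYC, 22 were tested, with 10 higher (45.5%, beside 25.6% of all rows), 4 lower (18.2%, beside 25.5%) and 8 not called, a median of 0.24. Mycl was among the 10 and had passed the filter only through KO. Jdp2, which represses AP-1 as a partner of JUN, went from 13.2 ± 2.67 to 22.8 ± 2.51 CPM (SD, n = 6; log2 0.78 ± 0.12 SE, edgeR adjusted p = 3.97e-05). Ddit3, the CHOP protein of the stress response and a partner of ATF and C/EBP proteins, went from 15.02 ± 2.84 to 29.0 ± 2.19 CPM (log2 0.95 ± 0.10 SE, edgeR adjusted p = 9.39e-07). Nab1, a corepressor of EGR1, rose by 0.30. Mxd4, which competes with MYC for its partner MAX, went from 164 ± 13.02 to 293 ± 32.6 CPM (log2 0.83), and Max rose by 0.32. The falls, besides Mycn, were Mxi1 (log2 -0.30), Mga (-0.13) and Zbtb17 (-0.24).

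Markers of other cell types and of tissue handling were measured in the same libraries, and their counts of calls stand beside the 25.6% of all rows higher and 25.5% lower. The 10 fibroblast markers summed to 1577 to 1852 CPM in WT and 2770 to 5210 CPM in KO, with 9 of 10 higher. The 10 cardiomyocyte markers, which identify the tissue and summed to 54741 to 59553 CPM in WT and 43700 to 59747 CPM in KO, were lower for 6 of 10. The 10 endothelial markers (6 higher, 1 lower) summed to 3250 to 3723 CPM in WT and 3444 to 3975 CPM in KO. The 10 smooth muscle and pericyte markers (4 higher, 2 lower) summed to 1499 to 1738 and 1545 to 2060 CPM. The macrophage markers (9 tested, 1 higher, 2 lower) summed to 294 to 411 and 295 to 431 CPM. Those 3 ranges overlapped between the genotypes, as did that of the cardiomyocyte markers. Blood cell markers were low or varied within each genotype: B and T cell markers (8 tested, 1 higher) at 14.7 to 24.9 and 17.6 to 36.5 CPM, neutrophil markers (6 tested, 1 higher) at 4.92 to 17.6 and 7.37 to 23.4 CPM, and red cell markers at 293 to 1014 and 615 to 1228 CPM. Of the 7 heat shock genes tested, 2 were lower (Hspe1 by 0.80 and Hsph1 by 0.39 on the log2 scale), and the list summed to 515 to 568 CPM in WT and 464 to 492 CPM in KO. Hspe1 encodes the partner of the mitochondrial chaperonin. It made up 123 to 165 CPM of that sum in WT and 76.3 to 86.2 CPM in KO. With Hspe1 left out, the WT and KO sums overlapped, and 5 genes of the list were not called. Hspa1a, Hspa8 and Hsp90aa1 of this list were not in the table, so they are not part of the sum. No gene of these lists was at 0 in every library. The part of the cell mixture and of tissue handling in the levels of the 10 genes was not tested.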

How the data were processed

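RNA of the ventricular wall was sequenced in 12 libraries, 6 WT and 6 KO, grouped by the genotype in the labels. mRNA was purified on poly-T beads, and the submitters' processing notes name HISAT2 2.0.5 and the build mm10. The authors used HTSeq to count reads per gene and deposited the raw counts, and the identifiers and coordinates of that table are those of the C57BL/6NJ strain, which differ from mm10. Whether counting used the strand is not given in the sources used here, so overlapping rows cannot be separated. The authors also deposited FPKM per library, computed from counts, a length and library size, which served here to compare genes and in limma on FPKM. The length used was not always the one listed with the counts. In WT replicate 1, Jun had 2442 counts, a listed length of 3189 bases and 32.2 FPKM, which go together. Fos had 480 counts there, a listed length of 2108 bases and 18.5 FPKM, more than that length gives. The deposited group means, a signal of scaled counts, and the log2 fold changes and p-values of the authors' own DESeq comparison were not used. Unannotated loci took 9.617% to 12.451% of the counts and were kept.

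Counts were fitted by edgeR 4.0.16 under R 4.3.3. Of 27883 rows with a count, filterByExpr kept 17155, which were scaled by TMM and given to the robust quasi-likelihood test, with Benjamini-Hochberg adjustment over all rows tested. Standard errors were derived from the F statistic of each fold change, and intervals from the t distribution at 95%. Tested on simulated counts of 17155 rows for KO against WT, with 200 changed by a log2 fold change of 1, it recovered 192 and called 8 others. The simulated rows all had the same dispersion and no scarce row was changed. The recovery thus does not carry over to genes with a wide spread or few counts. Exact permutation tests, two-sided, used log2 CPM with a prior count of 2. Alternatives were other normalizations, DESeq2 1.42.0, limma 3.58.1 (voom, and log2(FPKM + 0.1)), other filters, unannotated loci left out, a replicate block and each library left out. Leaving out KO replicate 3 with WT replicate 6 and the permutation tests were added after seeing the data.

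The members, gene lists and tests were chosen with earlier results of these data known. Named besides the members are up to 4 genes per direction with the smallest p among called genes of at least 1 CPM in each list, the nearest relatives, Srf, Max and Mapk3, and the 6 genes of at least 5 CPM most like the members' mean. Mycl and Dusp2 were named after their values were seen, and 1 gene that the rule names is not reported here. Depth limits Fosb, Egr3 and Fosl1, with 1 to 54 counts a library.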

Additional observations from a re-analysis of the deposited data

Results flagged for a closer look

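In 86 groups of 6 libraries, 6 held a value far from the other 5 by Dixon's test, where chance alone gives about 1 in 20, or 4.3. Among the members, Jun was low in WT replicate 6 at 78.3 CPM, next to 100.3 CPM, Egr1 was high in WT replicate 1 at 52.1 CPM, next to 21.9 CPM, and Myc was high in KO replicate 3 at 7.75 CPM, next to 5.54 CPM. Among the other genes, Klf2 was high in KO replicate 4 at 80.0 CPM, Mycn was low in KO replicate 6 at 0.396 CPM, and Egr2 was low in WT replicate 6 at 0.115 CPM, next to 0.809 CPM. WT replicate 6, which gave 2 of the 6, was also the WT library with the least Sdhaf4.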

How the results depend on the processing

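Fos, Jun, Atf3 and Egr3 kept their direction and their call in every alternative that tested them. Fosb and Egr3 were not tested under the filter of 1 CPM in 6 libraries. Egr3 passed the main filter only through KO, so its calls are no support for the group. Fosb kept its direction and lost its call in 7 of 23 alternatives, among them limma-voom (log2 -0.80, adjusted p = 0.0631) and limma on FPKM (log2 -0.54, adjusted p = 0.0713), and Ier3 in 6 of 24, among them no filter (0.44, adjusted p = 0.0558).

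The WT and KO replicate numbers share only a number: correlations of same-numbered deviations from the group means were -0.162 to 0.024. With the replicate block, 5 members were called instead of 6 (Fosb at log2 -0.84, adjusted p = 0.0834), 1 instead of 3 passed the stricter threshold (Egr3), and 8233 rows of the table were called instead of 8767.

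With each library left out in turn, 4 to 6 members were called, the fewest without KO replicate 2 or KO replicate 5. By the stricter threshold 1 to 3 were called, the fewest without KO replicate 2 or KO replicate 3. Log2 fold changes then ran from -2.22 to -1.66 for Fos, -2.06 to -1.53 for Atf3, -0.46 to -0.34 for Jun, -1.11 to -0.69 for Fosb, 1.96 to 2.71 for Egr3 and 0.35 to 0.52 for Ier3. Among genes not called, the sign turned in some of these fits for Egr1 (-0.28 to 0.66), Junb (-0.16 to 0.10) and Ier2 (-0.13 to 0.031), and not for Myc (-0.37 to -0.10). No normalization moved the median of all rows by more than 0.1 on the log2 scale. The cause of the differences between settings was not tested.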
